A study of Homo sapiens with 12 samples.

Results

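LAPTM4B is a membrane protein of late endosomes and lysosomes that is raised in several carcinomas, and the question addressed here is for which genes the change after *LAPTM4B* knockdown depended on serum. The measure is a difference of differences: the log2 change from siControl to siLAPTM4B without serum, minus the same change with 10% fetal bovine serum (FBS). It uses all 12 of the 12 arrays and 19460 of the 33252 features, namely all features that carry exactly 1 gene symbol. A negative difference means that knockdown moved the gene lower, or raised it less, without serum than with it.

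Calu-6 is an established human lung cancer cell line. The cells received a control scrambled siRNA (siControl) or a pool of siRNAs against *LAPTM4B* (siLAPTM4B), both SMARTpool reagents from Dharmacon, by lipid transfection. A day later each went on in DMEM/F12 medium with 10% FBS or was moved to 0% FBS, and total RNA was taken 48 h after that change, 72 h after transfection. The 4 groups, siControl 0% FBS, siLAPTM4B 0% FBS, siControl 10% FBS and siLAPTM4B 10% FBS, hold 3 arrays each from independent transfections of this 1 line with 1 siRNA pool, so neither the spread between cell lines nor that between single siRNAs was measured. RNA came from whole cultures, where fewer expressing cells and less RNA per cell cannot be told apart.

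Serum carries growth factors and lipids. In cells that are short of them, lysosomes degrade cell material by autophagy and signalling from growth factor receptors falls. LAPTM4B takes part in the fusion of autophagosomes with lysosomes and in the traffic of receptors such as that for EGF. Immediate early genes, such as *FOS* and *EGR1*, are transcribed within minutes of a growth factor signal, whereas NRF2 (gene *NFE2L2*) is a transcription factor that raises antioxidant genes such as *HMOX1*.

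All signals below are log2 values after RMA, the authors' normalization of the arrays. Array medians lay between 7.71 and 7.76 and lower quartiles between 6.14 and 6.19. No array stood apart from its group: the SD of an array's deviations from its group means was 0.057 to 0.082. Of the epithelial and carcinoma markers 5 of 6 lay above the array median, among them *KRT8* and *KRT18*, while *CDH1* lay at 6.10 to 6.29. Of the fibroblast markers 4 of 8 lay above the median, of the leukocyte markers 2 of 6 and of the endothelial markers 0 of 4. The leukocyte marker *PTPRC* and the fibroblast marker *DCN* lay below the lower quartile. The interaction called 0 genes of these marker lists at the adjusted threshold, and 3 of their genes had an unadjusted p under 0.05.

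The targeted gene itself was among those whose change depended on the medium. Signals of *LAPTM4B* (feature 8147503), with siControl arrays before siLAPTM4B arrays here and throughout, were 11.94, 11.87 and 11.93 against 10.45, 10.50 and 10.54 without serum and 11.76, 11.75 and 11.80 against 10.01, 10.04 and 9.99 with 10% FBS. In both media the siRNA groups were apart, and the siLAPTM4B arrays with serum were the lowest. Knockdown changed *LAPTM4B* by -1.42 (SE 0.046) without serum and by -1.75 (SE 0.044) with 10% FBS, so that 37.3% and 29.7% of the siControl signal were left. The difference was 0.33 (SE 0.056, 95% CI 0.21 to 0.45, adjusted p = 0.035) by limma. It was not called in any of the 12 fits that left out 1 array, where the adjusted p ran from 0.052 to 0.1 and the difference from 0.31 to 0.36. Knockdown was thus measured as somewhat deeper with serum, and the part of this in the other differences was not tested.

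At an adjusted p under 0.05 (limma, Benjamini-Hochberg over the 19460 features), 51 features differed between the media, which is 0.262% of those tested and stands for 51 genes. For 37 of them (0.19% of those tested) the change was more negative without serum, and for 14 (0.0719%) it was more negative with 10% FBS. Over all features the median difference was -0.00077, 50.3% of the differences were negative and the median absolute difference was 0.073, compared with 0.5 for the called features. The median 95% confidence interval reached 0.18 to either side of the estimate, so for a typical feature a difference smaller than this has an interval that holds 0. The count was lower in most fits that left out 1 array, each of which also has fewer samples. It was 51 without siLAPTM4B 0% FBS replicate 3 and 43 without siLAPTM4B 10% FBS replicate 1, but 35 without siControl 10% FBS replicate 3. It was 29, 26 and 21 without siControl 0% FBS replicates 1, 2 and 3, and 19 and 22 without siLAPTM4B 0% FBS replicates 1 and 2. Without siControl 10% FBS replicates 1 and 2 it was 27 and 24, and without siLAPTM4B 10% FBS replicates 2 and 3 it was 28 and 28.

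Most features whose knockdown change was called in 1 medium alone were not called in the interaction. Knockdown called 454 features without serum (2.33% of those tested) and 793 with 10% FBS (4.08%). Of the 258 features called without serum only, 18 were called in the interaction, and of the 597 called with 10% FBS only, 24 were. Another 196 features were called in both media, and the interaction called 6 of them. In the plot of the 2 changes against each other, the called genes lie away from the line of equal change on both sides. For 29 of the 51 the estimated change had opposite signs in the 2 media. Both are descriptions, since a call requires a large difference between the 2 changes, which itself favours opposite signs. The share of opposite signs over all features was not counted.

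**Figure D1:**
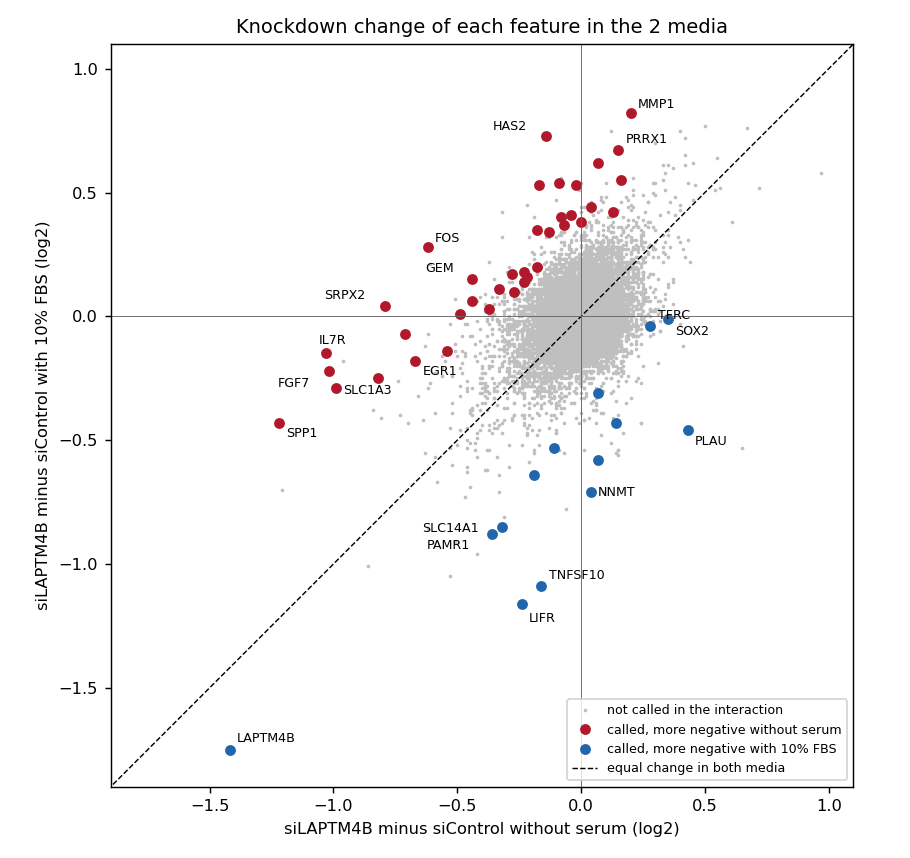
Each point is 1 of the 19460 features, with the log2 change after LAPTM4B knockdown without serum on the x axis and with 10% FBS on the y axis, and the dashed line marks equal change. The 37 genes more negative without serum (red) lie above the line and the 14 more negative with 10% FBS (blue) below it, with LAPTM4B at -1.42 and -1.75.

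The first group comprised genes that fell after knockdown without serum and were not called with 10% FBS. There were 16 of them, and they include a cytokine receptor, growth factor signalling genes, immediate early genes and transporters. This group and those below rest on calls in separate fits of each medium. Some members came near the threshold in the other medium, such as *SLC1A3* with 10% FBS (adjusted p = 0.053, limma). With 1 fit of all 12 arrays knockdown called 687 features without serum and 1370 with 10% FBS, and the sorting was not repeated there. Knockdown lowered *IL7R* (the receptor chain for interleukin 7) to 49.0% of its siControl signal without serum and left 90.2% with serum. *SPP1* (osteopontin, a secreted phosphoprotein that binds integrins) and *SLC38A4* (an amino acid transporter) fell in both media, and further without serum.

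The largest of these differences was that of *FOS* (feature 7975779), a subunit of the AP-1 transcription factor. Its signals were 9.70, 9.61 and 9.97 against 9.11, 9.10 and 9.21 without serum and 7.92, 8.10 and 8.18 against 8.43, 8.25 and 8.36 with 10% FBS. Without serum the siControl arrays were the highest and all siLAPTM4B arrays lay below them, while with serum the siLAPTM4B arrays lay above the siControl arrays. Knockdown changed *FOS* by -0.62 (SE 0.087) without serum and by 0.28 (SE 0.076) with 10% FBS, and the latter was not called (adjusted p = 0.084, limma). The difference was -0.90 (SE 0.13, 95% CI -1.18 to -0.63, adjusted p = 0.0096). It was called in 12 of 12 fits that left out 1 array, and in 6 of 8 other settings of the fit. *EGR1* (feature 8108370), a zinc finger transcription factor of the same class of genes, had signals of 11.39, 11.32 and 11.57 against 10.77, 10.79 and 10.72 without serum and 10.55, 10.59 and 10.54 against 10.46, 10.31 and 10.36 with 10% FBS. It lay lower in siLAPTM4B arrays in both media, without overlap, but by more without serum. Its difference was -0.48 (SE 0.086, 95% CI -0.67 to -0.30, adjusted p = 0.042) and was called in 1 of 12 fits that left out 1 array.

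The promoter of *EGR1* is shown because it holds the letters through which serum response factor (SRF) is known to act on this gene. The stretch below lies 120 to 51 bases upstream of the transcription start (RefSeq, GRCh38.p14, chr5:138465359-138465428, plus strand). Capitals mark 2 CArG boxes, the motif of SRF, with no further match in the 250 bases upstream of the start.
*EGR1*: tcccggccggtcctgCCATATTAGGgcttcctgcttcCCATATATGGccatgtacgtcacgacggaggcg
The CArG box, read as CC, then 6 letters that are A or T, then GG, on both strands, was found in 1.22% of 14239 promoters with an entry (250 bases before the start to 50 after it). Among called genes it was found in 2 of 31 promoters of genes more negative without serum, *EGR1* and *ST6GALNAC3*, and in 0 of 12 of the others. In *FOS* it was not found in this window, and sequence farther upstream was not searched, so a CArG box there would be missed. The immediate early list held it in 2 of 22 promoters.

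*IL7R* (feature 8104901) had signals of 10.26, 10.33 and 10.42 against 9.23, 9.32 and 9.37 without serum and 11.44, 11.42 and 11.44 against 11.23, 11.29 and 11.33 with 10% FBS. The siLAPTM4B arrays were the lowest of all without serum, and with serum the 2 siRNA groups lay close together without overlap. The difference was -0.88 (SE 0.072, 95% CI -1.04 to -0.73, adjusted p = 0.00021), called in 12 of 12 fits that left out 1 array. *SPP1* (feature 8096301) read 11.47, 11.27 and 11.41 against 10.12, 10.14 and 10.22 without serum and 8.29, 8.19 and 8.43 against 7.91, 7.89 and 7.80 with 10% FBS. It was lower in every siLAPTM4B array of both media, and knockdown left 42.8% of its signal without serum and 74.0% with 10% FBS. Its difference was -0.79 (SE 0.093, 95% CI -0.99 to -0.59, adjusted p = 0.0041), called in 12 of 12 of these fits. *SLC38A4* had a difference of -0.57 (SE 0.072, 95% CI -0.73 to -0.42, adjusted p = 0.005), with a change of -0.82 without serum and -0.25 with serum.

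Both a fibroblast growth factor and its receptor were in this group. *FGF7* (feature 7983630), a growth factor for epithelial cells, read 7.65, 7.96 and 7.99 against 6.71, 6.85 and 6.97 without serum and 6.53, 6.55 and 6.80 against 6.35, 6.48 and 6.39 with 10% FBS. The siControl arrays without serum were the highest, and the siRNA groups were apart in both media. Its difference was -0.81 (SE 0.14, 95% CI -1.10 to -0.51, adjusted p = 0.035), called in 3 of 12 fits that left out 1 array. *FGFR2*, whose epithelial isoform binds FGF7, changed by -0.37 (SE 0.053) without serum and 0.03 (SE 0.052) with 10% FBS, a difference of -0.39 (SE 0.073, 95% CI -0.55 to -0.24, adjusted p = 0.0497) that was called in 0 of 12 such fits. Of the 23 measured EGF and FGF ligands and receptors these 2 were called, against 0.262% of all features, and the median difference of the list was -0.015. This list was chosen with earlier results of these data known, so the count is only a description.

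*SRPX2* (feature 8168749), a secreted protein that binds the urokinase receptor, read 8.16, 8.0 and 7.94 against 7.19, 7.18 and 7.37 without serum and 8.30, 8.32 and 8.48 against 8.39, 8.59 and 8.25 with 10% FBS. The siRNA groups were apart without serum and overlapped with 10% FBS. The difference was -0.83 (SE 0.13, 95% CI -1.10 to -0.56, adjusted p = 0.017), called in 9 of 12 fits. Its promoter is shown as the example in which an AP-1 motif (TGANTCA) and the antioxidant response motif (TGACNNNGC), which NRF2 binds, share letters. It lies 140 to 71 bases upstream of the start (RefSeq, GRCh38.p14, chrX:100644059-100644128, plus strand), and capitals mark the overlapping matches.
*SRPX2*: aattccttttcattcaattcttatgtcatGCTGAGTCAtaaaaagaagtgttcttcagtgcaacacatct
TGANTCA was found in 3 of the 31 promoters of called genes more negative without serum and in 1 of 12 of the others, against 5.58% of all promoters. For TGACNNNGC these counts were 5 of 31 and 1 of 12, against 14.6%, and for TGACGTCA, the motif of the cyclic AMP response, 0 of 31 and 0 of 12, against 2.65%.

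The rest of this group includes a transporter and signalling enzymes. *SLC1A3* (feature 8104930), a glutamate and aspartate transporter, read 8.16, 8.17 and 8.30 against 7.19, 7.24 and 7.23 without serum and 8.16, 8.07 and 8.09 against 7.77, 7.97 and 7.72 with 10% FBS. It was lower in all siLAPTM4B arrays of both media, and farther without serum. The difference was -0.70 (SE 0.087, 95% CI -0.89 to -0.51, adjusted p = 0.005). *ADCY5* (feature 8090070), an adenylyl cyclase, read 9.0, 8.86 and 8.89 against 8.10, 8.22 and 8.31 without serum and 7.53, 7.53 and 7.50 against 7.46, 7.47 and 7.41 with 10% FBS. The siControl arrays without serum stood highest, and with serum the siRNA groups lay close together. Its difference was -0.63 (SE 0.079, 95% CI -0.81 to -0.46, adjusted p = 0.005). *GEM* (feature 8151816), a small GTPase that inhibits calcium channels, read 10.97, 10.95 and 11.01 against 10.48, 10.51 and 10.62 without serum and 9.70, 9.75 and 9.75 against 9.86, 9.89 and 9.89 with 10% FBS. Knockdown arrays were below the siControl arrays without serum and above them with it. The difference was -0.59 (SE 0.062, 95% CI -0.73 to -0.46, adjusted p = 0.0016), and *SLC1A3*, *ADCY5* and *GEM* were each called in 12 of 12 fits that left out 1 array.

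The other genes called as lower without serum, and not called in 10% FBS, had differences between -0.50 and -0.37. They were *RDH10* (which makes retinal from retinol, -0.50), *FFAR2* (a receptor for short-chain fatty acids, -0.50), *ABCA1* (the cholesterol exporter, -0.45), *PDE1B* (a cyclic nucleotide phosphodiesterase, -0.43), *DNAJA4* (a cochaperone, -0.41), *DHRS2* (a short-chain dehydrogenase, -0.40) and *TPD52L1* (-0.37). *RDH10* and *ABCA1* were called in all 12 fits that left out 1 array, and the other 5 in 1 to 4. *ABCA1* changed by -0.28 (SE 0.046) without serum and by 0.17 (SE 0.05) with it, the latter not called (adjusted p = 0.1, limma).

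**Figure D2:**
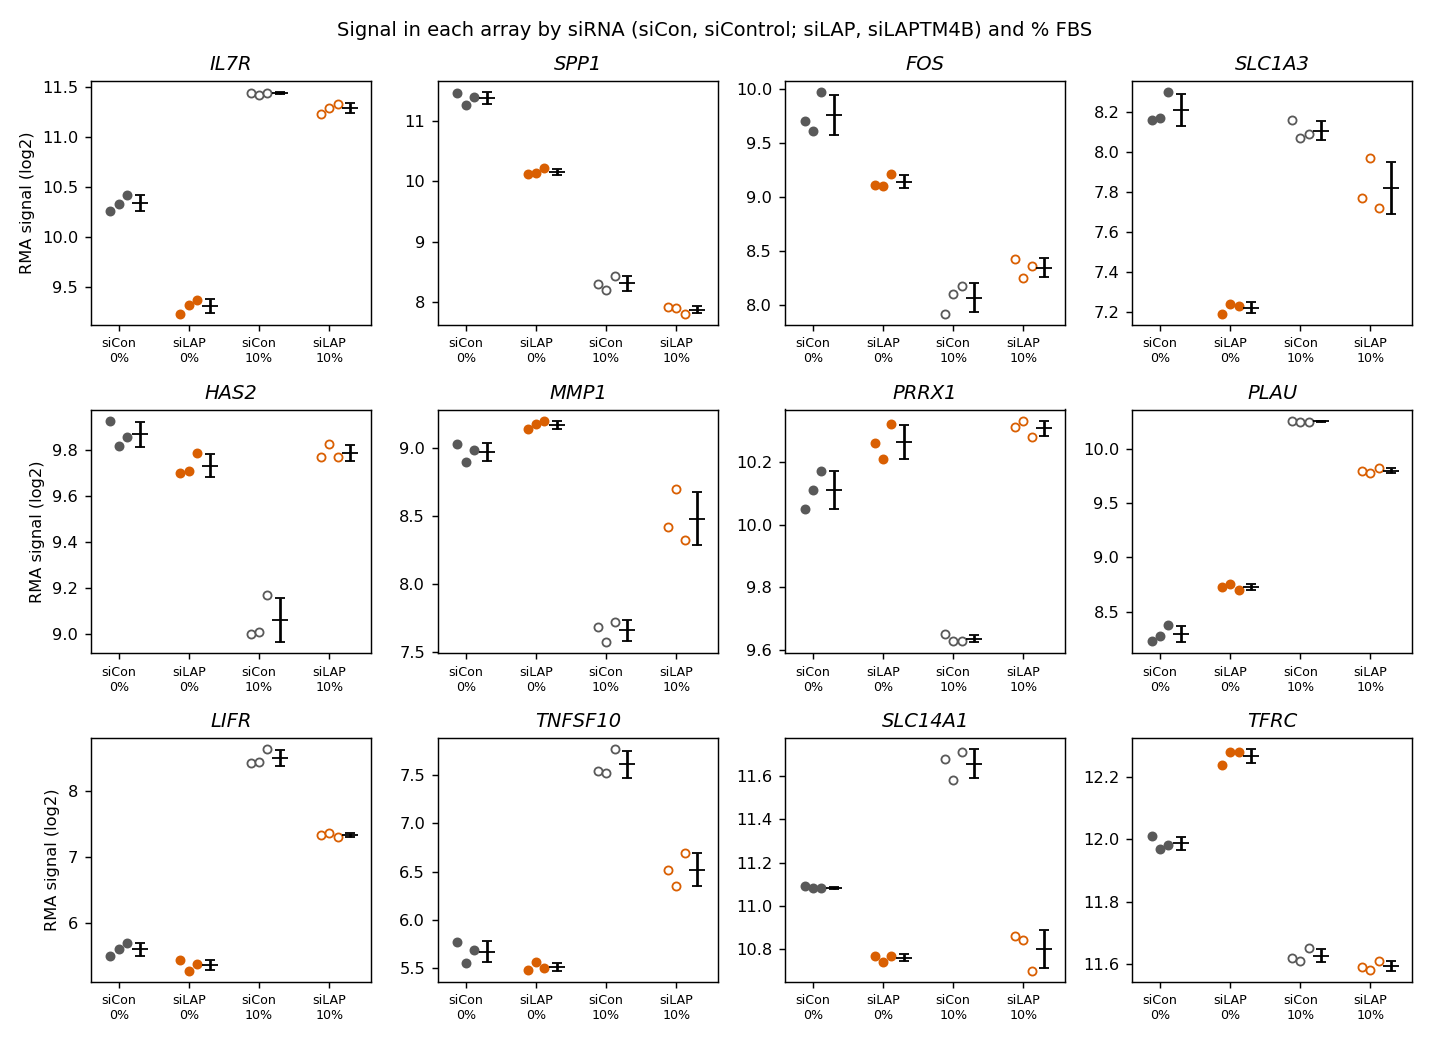
The log2 RMA signal of 12 called genes is shown in each of the 12 arrays (dots; filled without serum, open with 10% FBS; grey siControl, orange siLAPTM4B), with the mean and SD of each group of 3 in black and an axis of its own per gene. The knockdown change of IL7R, SPP1 and SLC1A3 was more negative without serum. HAS2, MMP1 and PRRX1 were called higher after knockdown with 10% FBS, and knockdown moved PLAU in opposite directions in the 2 media.

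The second group was called higher after knockdown in 10% FBS, while its changes in the absence of serum did not pass the test. It again held 16 genes, and matrix, secreted and cell surface proteins were among them. *HAS2* (feature 8152617), a hyaluronan synthase, read 9.93, 9.82 and 9.86 against 9.70, 9.71 and 9.79 without serum and 9.0, 9.01 and 9.17 against 9.77, 9.83 and 9.77 with 10% FBS. The siControl arrays with serum stood alone at the lower end, and the other groups lay close together. The change was -0.14 (SE 0.05) without serum and 0.73 (SE 0.057) with 10% FBS, and the difference was -0.87 (SE 0.074, 95% CI -1.03 to -0.71, adjusted p = 0.00026), called in 12 of 12 fits that left out 1 array. *MMP1* (feature 7951271), a collagenase, read 9.03, 8.90 and 8.99 against 9.14, 9.18 and 9.20 without serum and 7.68, 7.57 and 7.72 against 8.42, 8.70 and 8.32 with 10% FBS. It was higher in siLAPTM4B arrays of both media, by 0.20 without serum, which was not called (adjusted p = 0.088, limma), and by 0.82 with serum. Its difference was -0.63 (SE 0.11, 95% CI -0.87 to -0.38, adjusted p = 0.048), called in 2 of 12 fits.

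*PRRX1*, a homeobox transcription factor of mesenchymal cells, changed by 0.15 (SE 0.052) without serum and by 0.67 (SE 0.043) with 10% FBS, a difference of -0.52 (SE 0.062, 95% CI -0.66 to -0.39, adjusted p = 0.0041). *INHBA*, the subunit of activin A, changed by -0.13 (SE 0.056) and 0.34 (SE 0.042), a difference of -0.48 (SE 0.066, 95% CI -0.62 to -0.33, adjusted p = 0.0096). *SERPINE2*, an inhibitor of urokinase and thrombin, changed by 0.13 (SE 0.041) and 0.42 (SE 0.044), a difference of -0.29 (SE 0.052, 95% CI -0.41 to -0.18, adjusted p = 0.042). *PRRX1* and *INHBA* were called in 12 of 12 fits that left out 1 array and *SERPINE2* in 0 of 12.

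*OR4C6* (feature 7939932), an olfactory receptor gene, read 7.78, 7.64 and 7.74 against 7.46, 7.53 and 7.65 without serum and 7.95, 7.89 and 7.97 against 8.32, 8.59 and 8.48 with 10% FBS. The siRNA groups overlapped without serum, and with serum all siLAPTM4B arrays were above the siControl arrays. The difference was -0.70 (SE 0.098, 95% CI -0.91 to -0.49, adjusted p = 0.0096). *FRMD7* (feature 8175155), a protein with a FERM domain, read 7.70, 7.56 and 7.57 against 7.46, 7.46 and 7.63 without serum and 8.68, 8.77 and 8.91 against 9.25, 9.47 and 9.25 with 10% FBS. It too overlapped without serum and was apart with serum, a difference of -0.63 (SE 0.11, 95% CI -0.86 to -0.40, adjusted p = 0.035) that was called in 3 of 12 fits that left out 1 array.

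The remaining members rose after knockdown with 10% FBS by 0.41 (*ADGRG1*, an adhesion receptor), 0.37 (*SYNM*, an intermediate filament protein), 0.53 (*THSD7A*), 0.35 (*SCUBE3*, a secreted protein), 0.62 (*TCN1*, which binds vitamin B12), 0.40 (*ST6GALNAC3*, a sialyltransferase), 0.44 (*PLEK2*), 0.55 (*EEIG2*) and 0.38 (*KLHL15*). Their changes without serum lay between -0.18 and 0.16, and none of them was called. *THSD7A* and *SYNM* were called in the interaction in all 12 fits that left out 1 array, and the others in 1 to 9. Group means of *TCN1* without serum were below the mean lower quartile of the arrays, 6.17, among the dimmest features of the array. *ST6GALNAC3* has another feature, with a difference of -0.41 (adjusted p = 0.11, limma).

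For 3 further genes more negative without serum, knockdown was called in neither medium, and the estimates had opposite signs. *SEMA5A*, a semaphorin, changed by -0.18 without serum and 0.20 with 10% FBS, *CLN8*, which carries lysosomal enzymes out of the endoplasmic reticulum, by -0.22 and 0.16, and *COBLL1* by -0.23 and 0.14. Their differences, -0.39, -0.38 and -0.37, were called in 0 or 1 of the 12 fits that left out 1 array. The other feature of *CLN8* had a difference of -0.23 (adjusted p = 0.18, limma).

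In the opposite direction, 8 genes fell after knockdown with 10% FBS and were not called without serum. The receptor for leukaemia inhibitory factor, *LIFR* (feature 8111677), read 5.49, 5.60 and 5.69 against 5.43, 5.27 and 5.37 without serum and 8.43, 8.44 and 8.64 against 7.33, 7.37 and 7.31 with 10% FBS. It was near the lower end of the arrays without serum in both siRNA groups, and with serum the siLAPTM4B arrays were far below the siControl arrays. Knockdown left 44.6% of its signal with serum. The difference was 0.93 (SE 0.096, 95% CI 0.72 to 1.14, adjusted p = 0.0016), called in 12 of 12 fits that left out 1 array. *TNFSF10* (feature 8092169), the death ligand TRAIL, read 5.77, 5.55 and 5.69 against 5.48, 5.56 and 5.50 without serum and 7.54, 7.52 and 7.77 against 6.52, 6.35 and 6.69 with 10% FBS. Its siRNA groups overlapped without serum and were apart with it. The difference was 0.93 (SE 0.12, 95% CI 0.66 to 1.20, adjusted p = 0.0083), called in 12 of 12 fits. Both genes had 2 group means, those without serum, below the mean lower quartile of 6.17 and thus among the dimmest features of the array.

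*NNMT* (feature 7943998), which methylates nicotinamide, read 7.65, 7.38 and 7.60 against 7.73, 7.57 and 7.44 without serum and 8.52, 8.32 and 8.43 against 7.80, 7.64 and 7.68 with 10% FBS. The groups overlapped without serum and were apart with it, a difference of 0.75 (SE 0.12, 95% CI 0.49 to 1.02, adjusted p = 0.027) that was called in 4 of 12 fits that left out 1 array. *IGFBP5* (feature 8058857), a binding protein of insulin-like growth factors, read 12.62, 12.49 and 12.69 against 12.39, 12.39 and 12.47 without serum and 12.58, 12.57 and 12.58 against 12.04, 11.88 and 11.90 with 10% FBS. It was lower in siLAPTM4B arrays of both media, and by more with serum. The difference was 0.45 (SE 0.08, 95% CI 0.28 to 0.62, adjusted p = 0.043), called in 2 of 12 fits.

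*ABLIM3* (feature 8109093), an actin-binding protein, read 7.85, 7.95 and 7.88 against 7.85, 7.74 and 7.76 without serum and 9.47, 9.56 and 9.51 against 9.06, 8.93 and 8.97 with 10% FBS. A difference of 0.42 (SE 0.07, 95% CI 0.27 to 0.57, adjusted p = 0.034) resulted, called in 2 of 12 fits that left out 1 array. *KCTD4* (feature 7971369) read 6.06, 6.01 and 6.06 against 6.20, 6.24 and 6.11 without serum and 7.31, 7.21 and 7.35 against 6.76, 6.99 and 6.82 with 10% FBS. Its siLAPTM4B arrays were above the siControl arrays without serum, where the signal was near the lower quartile, and below them with serum, a difference of 0.57 (SE 0.086, 95% CI 0.38 to 0.76, adjusted p = 0.017). *ACOXL* (feature 8044353), a relative of acyl-CoA oxidases, read 6.31, 6.35 and 6.33 against 6.39, 6.39 and 6.43 without serum and 6.78, 6.67 and 6.67 against 6.47, 6.39 and 6.31 with 10% FBS. It was nearly as dim and had a difference of 0.38 (SE 0.069, 95% CI 0.23 to 0.53, adjusted p = 0.044). *KCTD4* was called in 7 of 12 fits and *ACOXL* in 1 of 12.

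For *SLC1A5*, the glutamine transporter ASCT2, the features of the gene disagreed. The called feature (8029854) read 8.61, 8.65 and 8.71 against 8.70, 8.82 and 8.66 without serum and 9.05, 8.94 and 8.88 against 8.52, 8.18 and 8.42 with 10% FBS. It overlapped between siRNAs without serum and fell after knockdown with 10% FBS, a difference of 0.66 (SE 0.11, 95% CI 0.42 to 0.90, adjusted p = 0.034, limma). This was called in 4 of 12 fits that left out 1 array. The other feature of *SLC1A5* (8037835), with a mean signal of 11.46, changed by -0.12 without serum and by -0.17 with serum, a difference of 0.05 (adjusted p = 0.8, limma).

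Urokinase, *PLAU* (feature 7928429), the protease that activates plasminogen, was the gene called in both media with opposite signs. Its signals were 8.23, 8.28 and 8.38 against 8.73, 8.76 and 8.70 without serum and 10.26, 10.25 and 10.25 against 9.80, 9.78 and 9.82 with 10% FBS. Without serum all siLAPTM4B arrays were above the siControl arrays, and with 10% FBS all were below. The change was 0.43 (SE 0.051) without serum and -0.46 (SE 0.043) with serum. The difference was 0.89 (SE 0.061, 95% CI 0.75 to 1.02, adjusted p = 6.1e-05), with the smallest p of all features tested, and it was called in 12 of 12 fits that left out 1 array. Of the 22 measured plasminogen, hyaluronan and matricellular genes, *PLAU*, *HAS2*, *SPP1* and *SERPINE2* were called in the interaction, against 0.262% of all features. Their differences were 0.89, -0.87, -0.79 and -0.29, and the median of the list was 0.059. The list was chosen with earlier results of these data known, so the count of its called members is only a description.

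Besides *LAPTM4B*, 2 genes fell in both media and further with 10% FBS. *SLC14A1* (feature 8021081), a urea transporter, read 11.09, 11.08 and 11.08 against 10.77, 10.74 and 10.77 without serum and 11.68, 11.58 and 11.71 against 10.86, 10.84 and 10.70 with 10% FBS. All siLAPTM4B arrays were below those of siControl within each medium. The difference was 0.53 (SE 0.07, 95% CI 0.37 to 0.68, adjusted p = 0.0083), called in 12 of 12 fits. *PAMR1* (feature 7947512), a secreted protein with a domain like that of proteases, read 7.59, 7.48 and 7.61 against 7.25, 7.14 and 7.21 without serum and 8.57, 8.70 and 8.76 against 7.73, 7.82 and 7.85 with 10% FBS. The difference was 0.52 (SE 0.082, 95% CI 0.34 to 0.69, adjusted p = 0.025), called in 4 of 12 fits.

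A rise after knockdown was called without serum, and no change in 10% FBS, for 2 genes. *SOX2* (feature 8084165), a transcription factor of stem cells and of squamous epithelium, read 9.57, 9.54 and 9.48 against 9.91, 9.84 and 9.90 without serum and 9.11, 9.08 and 9.20 against 9.13, 9.11 and 9.12 with 10% FBS. The siLAPTM4B arrays were the highest without serum and lay within the range of the siControl arrays with serum. The difference was 0.36 (SE 0.061, 95% CI 0.22 to 0.49, adjusted p = 0.035), called in 0 of 12 fits that left out 1 array. *TFRC*, the transferrin receptor through which cells take up iron, changed by 0.28 (SE 0.041) without serum and by -0.04 (SE 0.043) with 10% FBS. Its difference was 0.31 (SE 0.051, 95% CI 0.20 to 0.42, adjusted p = 0.027), called in 2 of 12 fits.

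The same interaction can be read as the effect of serum in each siRNA group, since the difference equals the serum withdrawal change (0% minus 10% FBS) in siLAPTM4B cells minus that in siControl cells. Of the 37 genes more negative without serum, 30 were higher without serum in siControl cells, and in 25 of these the change was smaller in size in siLAPTM4B cells. *FOS* was 1.70 higher without serum in siControl and 0.79 in siLAPTM4B cells. For *SPP1* these values were 3.08 and 2.29, for *ADCY5* 1.40 and 0.76, and for *HAS2* 0.81 and -0.05. The other 7 genes were lower without serum in siControl cells, and all 7 were lower still in siLAPTM4B cells, as *IL7R* was with -1.10 and -1.98. Of the 14 genes more negative with 10% FBS, 10 were lower without serum in siControl cells, and 9 of these less so in siLAPTM4B cells. *PLAU* changed by -1.96 in siControl and -1.07 in siLAPTM4B cells. The 9 include *LIFR* and *TNFSF10*, whose means without serum were below the lower quartile of the arrays in both siRNA groups, and *KCTD4*, whose siControl mean was, so that dim signal limits how large a fall could be measured in these 3. In all, the serum withdrawal change was smaller in size after knockdown in 34 of the 51, against 52.1% of all features. These counts are a description: they rest on the same arrays as the call, and the sign of a difference favours siControl values of the opposite sign. Of all features, 45.0% were higher without serum in siControl cells.

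**Figure D3:**
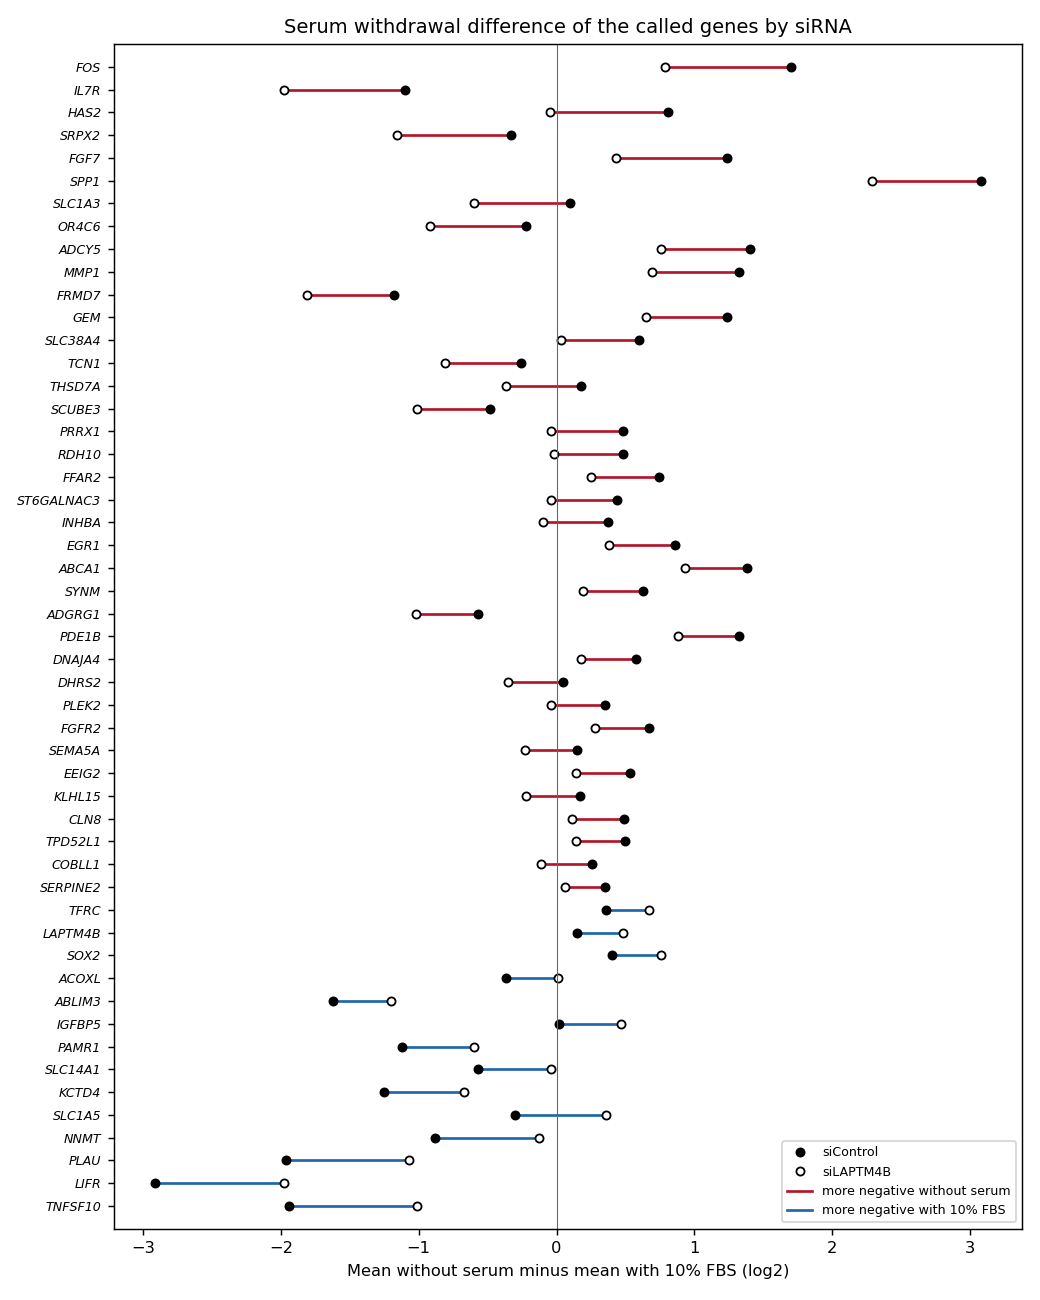
For each of the 51 called genes the mean log2 signal without serum minus that with 10% FBS is shown in siControl (filled) and siLAPTM4B cells (open), joined by a red line where the difference is negative and a blue line where it is positive. In 34 genes the open point lies nearer to 0 than the filled one, as for FOS (1.70 and 0.79) and PLAU (-1.96 and -1.07).

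Of the genes that the study followed for NRF2, autophagy and apoptosis, *HMOX1* had the largest difference between the media. None of them passed the interaction test in the main fit, where the unadjusted p of *HMOX1* was 0.00035 (limma). *HMOX1* (feature 8072678), heme oxygenase 1, read 9.68, 9.62 and 10.01 against 8.73, 8.76 and 8.93 without serum and 8.40, 8.19 and 8.10 against 7.91, 7.98 and 8.25 with 10% FBS. All siLAPTM4B arrays without serum lay below the siControl arrays, whereas with serum the groups overlapped. Knockdown changed it by -0.96 (SE 0.1) without serum (adjusted p = 0.0033, limma) and by -0.18 (SE 0.1) with 10% FBS (adjusted p = 0.39, limma). The difference was -0.78 (SE 0.16, 95% CI -1.12 to -0.43, adjusted p = 0.074), which is as large as that of *SPP1* but did not pass the threshold, with SDs of 0.1 to 0.21 between the arrays of a group. *SLC7A11*, the cystine transporter, changed by -0.62 (SE 0.049) without serum and -0.86 (SE 0.059) with 10% FBS, both called, and its difference of 0.24 (SE 0.075, 95% CI 0.07 to 0.40, adjusted p = 0.26) did not pass.

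*NQO1*, a quinone reductase, changed by -0.20 (SE 0.042) in the one medium and -0.20 (SE 0.044) in the other, and the interval of the difference, -0.12 to 0.11, holds 0. *ME1*, the malic enzyme that supplies NADPH, fell by 0.42 without serum and by 0.36 with serum, and the interval of its difference was -0.23 to 0.11. *NFE2L2* itself was called in neither medium, with a difference of 0.07 (SE 0.065, 95% CI -0.07 to 0.21, adjusted p = 0.75). For the mRNAs of the autophagy proteins, *SQSTM1* (p62) had a difference of -0.12 (SE 0.056, 95% CI -0.24 to 0.01, adjusted p = 0.48, limma). That of *MAP1LC3B* (LC3) was -0.04 (SE 0.086, 95% CI -0.23 to 0.14, adjusted p = 0.9, limma). *PARP1*, whose protein is cleaved in apoptosis, had a difference of 0.05 (SE 0.054, 95% CI -0.06 to 0.17, adjusted p = 0.76). For *NFE2L2*, *NQO1* and *PARP1* the intervals reach no further than 0.21 from 0. The study followed p62, LC3-II and the cleavage of PARP as protein on western blots, and NRF2 also as nuclear protein. The mRNA values here do not measure these.

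**Figure D4:**
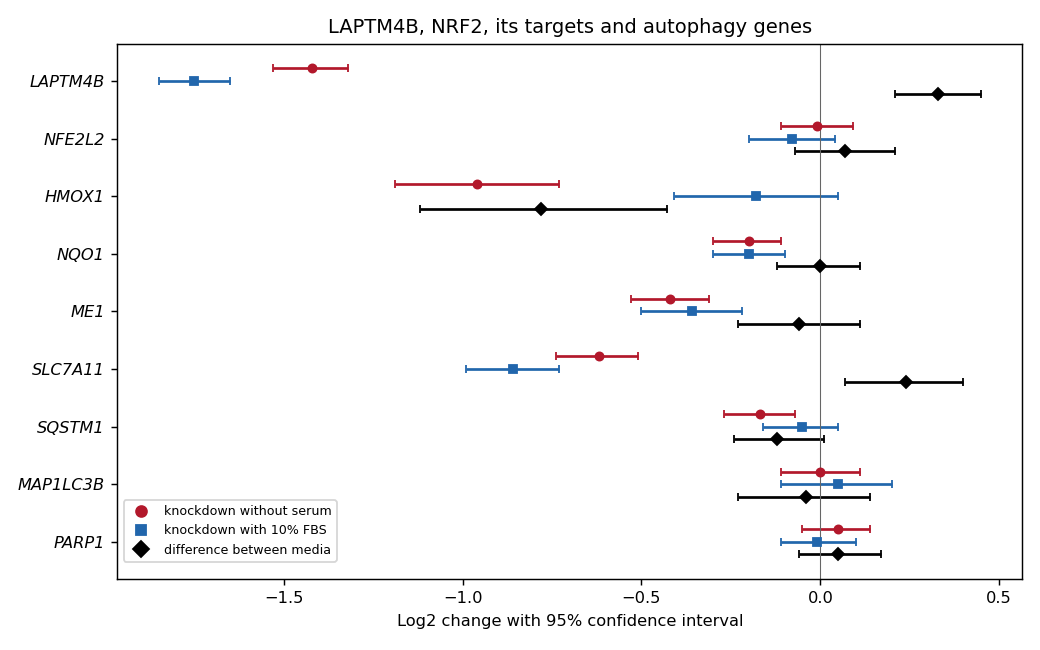
Log2 changes after knockdown without serum (red circles) and with 10% FBS (blue squares) and their difference (black diamonds) are shown with 95% confidence intervals from limma for LAPTM4B, NFE2L2 (NRF2) and 7 further genes. The difference of LAPTM4B (0.33) lies above 0, that of HMOX1 (-0.78) is the largest in size with the widest interval, and those of NQO1 and PARP1 lie near 0.

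Lists of genes by family or pathway were set beside these. They were chosen with earlier results of these data known, so counts of called members are only a description. The interaction called 0.262% of all features. Over all features, 6.49% had an unadjusted p under 0.05 with a more negative change without serum, and 4.47% with a more negative change in 10% FBS. Of the 54 measured NRF2 targets, 0 were called, and 8 and 4 passed this looser limit in the 2 directions. The median difference of this list was -0.026, and after *HMOX1* the member with the lowest p was *ABCG2*, a drug efflux pump, at 0.50 (SE 0.12, adjusted p = 0.13, limma). The list of immediate early genes had 31 measured members, of which 24 were below 0. *FOS* and *EGR1* were called, 12 and 0 passed the looser limit, and the median was -0.11. Of the 23 genes of ERK feedback and output, 0 were called and 7 and 1 passed the looser limit, led by *LIF*, the cytokine that LIFR binds (-0.40, SE 0.077, adjusted p = 0.06, limma), and *DUSP5*, a phosphatase of ERK (-0.30, SE 0.065, adjusted p = 0.087, limma). Of the 21 cytoskeletal targets of SRF and MRTF, 0 were called, 1 and 1 passed the looser limit and the median was 0.012. *ACTG2*, a smooth muscle actin, had the lowest p of these (-0.46, SE 0.099, adjusted p = 0.087, limma), followed by the calponin *CNN2* (0.15, adjusted p = 0.4, limma).

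Among the inflammatory lists, 0 of 24 NF-kappaB cytokines and chemokines and 0 of 37 interferon response genes were called. Their medians were -0.11 and -0.1, and 7 members of each passed the looser limit, all with a more negative change without serum. *PTGS2*, cyclooxygenase 2, changed by -1.21 without serum and -0.70 with 10% FBS, a difference of -0.52 (SE 0.11, adjusted p = 0.074, limma). *NFKBIA*, the inhibitor of NF-kappaB, had a difference of -0.35 (SE 0.079, adjusted p = 0.11, limma). Of the interferon response genes *IFI35* (-0.28, adjusted p = 0.18, limma) and *IFIT1* (-0.41, adjusted p = 0.23, limma) had the lowest p. Of 26 genes in the cytokine receptor list, which also holds the cytokine *TSLP*, *IL7R* and *LIFR* were called, in opposite directions. The list's median was -0.022. Of 24 matrix metalloproteinases, ADAMTS proteases and TIMP inhibitors *MMP1* alone was called, with a list median of -0.0077. The next was *MMP7*, matrilysin (-0.22, adjusted p = 0.3, limma). Another list held 17 measured genes of TRAIL, death receptors and the apoptosis proteins that act after them. Of these *TNFSF10* alone was called, with a list median of -0.044 and 3 and 1 members past the looser limit. The next was *CFLAR*, an inhibitor of death receptor signalling (-0.30, adjusted p = 0.29, limma).

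For the compartments in which LAPTM4B resides, 0 of 40 autophagy genes and 0 of 48 lysosomal genes were called. Of the autophagy genes 30 had a negative difference, with a median of -0.078, and 5 and 1 passed the looser limit, led by *ATG4C* (-0.36, SE 0.11, adjusted p = 0.23, limma) and *ATG14* (-0.28, SE 0.088, adjusted p = 0.26, limma). Of the lysosomal genes 35 had a negative difference, with a median of -0.051, and 6 and 0 passed. The lowest p were those of *LAPTM5*, a relative of LAPTM4B (-0.24, SE 0.089, adjusted p = 0.35, limma), and *MANBA*, a lysosomal mannosidase (-0.23, adjusted p = 0.37, limma). The median knockdown changes of the autophagy list were -0.011 without serum and 0.05 with 10% FBS, and those of the lysosome list -0.022 and 0.032.

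In the lists of metabolism and growth, where each gene stands by its feature with the highest mean, 0 members were called. *SLC1A5* belongs to the ATF4 list and stands there by its other feature, while its feature 8029854 was called. Sterol synthesis had 17 of 19 differences above 0, with a median of 0.074, and 0 and 5 genes passed the looser limit, led by the pathway enzymes *TM7SF2* (0.24, SE 0.057, adjusted p = 0.11, limma) and *MVD* (0.22, adjusted p = 0.24, limma). Hypoxia and glycolysis genes had 26 of 36 above 0, with a median of 0.045, led by *PFKFB4*, a regulator of glycolysis (0.36, SE 0.071, adjusted p = 0.061, limma). *CA12*, a carbonic anhydrase, had a difference of the opposite sign (-0.25, adjusted p = 0.15, limma). The median knockdown change of sterol synthesis was 0.039 without serum and -0.076 with 10% FBS. Genes of the G2 and M phases had 47 of 52 below 0, with a median of -0.069 and knockdown medians of 0.041 without serum and 0.1 with serum. The lowest p of these were those of the mitotic kinase *NEK2* (-0.25, adjusted p = 0.15, limma) and the kinesin *KIF15* (-0.27, adjusted p = 0.16, limma). S phase genes had 26 of 40 below 0, with a median of -0.038, led by *POLD3*, a subunit of a DNA polymerase (-0.29, adjusted p = 0.26, limma), and *RFC5*, a subunit of the clamp loader (-0.19, adjusted p = 0.34, limma). The medians of FOXO starvation genes (-0.015), the ATF4 response (0.016), fatty acid synthesis (-0.028), the unfolded protein response (0.013), p53 targets (-0.02), the BCL2 family (-0.028), the TGF-beta response (-0.062) and collagens and matrix (0.03) were of the same size or smaller.

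The genes with the lowest p in the remaining lists did not pass either. For the TGF-beta response they were *PMEPA1*, a target and inhibitor of the pathway (-0.28, SE 0.058, adjusted p = 0.074, limma), and *THBS1*, thrombospondin 1 (0.23, adjusted p = 0.15, limma). For collagens and matrix they were fibrillin *FBN1* (-0.24, adjusted p = 0.18, limma) and the laminin chain *LAMA4* (-0.17, adjusted p = 0.29, limma). In the ATF4 list *DDIT4*, an inhibitor of mTORC1, had a difference of 0.41 (adjusted p = 0.21, limma) and the lipoprotein receptor *VLDLR* one of -0.23 (adjusted p = 0.24, limma). Among FOXO starvation genes *PCK1*, an enzyme of gluconeogenesis, had a difference of 0.48 (adjusted p = 0.16, limma) and the repressor *BCL6* one of 0.16 (adjusted p = 0.35, limma). In the BCL2 family the values were -0.24 for *MCL1*, which inhibits apoptosis (adjusted p = 0.16, limma), and 0.26 for *BAD*, which promotes it (adjusted p = 0.21, limma). The p53 target *GDF15*, a stress cytokine, was at -0.35 (adjusted p = 0.22, limma) and the TRAIL receptor *TNFRSF10B* at -0.11 (adjusted p = 0.48, limma). Of the unfolded protein response, the chaperones *DNAJB9* and *HYOU1* were at -0.32 (adjusted p = 0.33, limma) and 0.11 (adjusted p = 0.5, limma). Of fatty acid synthesis, the desaturase family gene *FADS3* was at 0.17 and the acyl-CoA synthetase *ACSL1* at -0.23 (adjusted p = 0.37 for both, limma). Members of a list are not replicates, and the median standard error of a single feature's difference was 0.083.

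**Figure D5:**
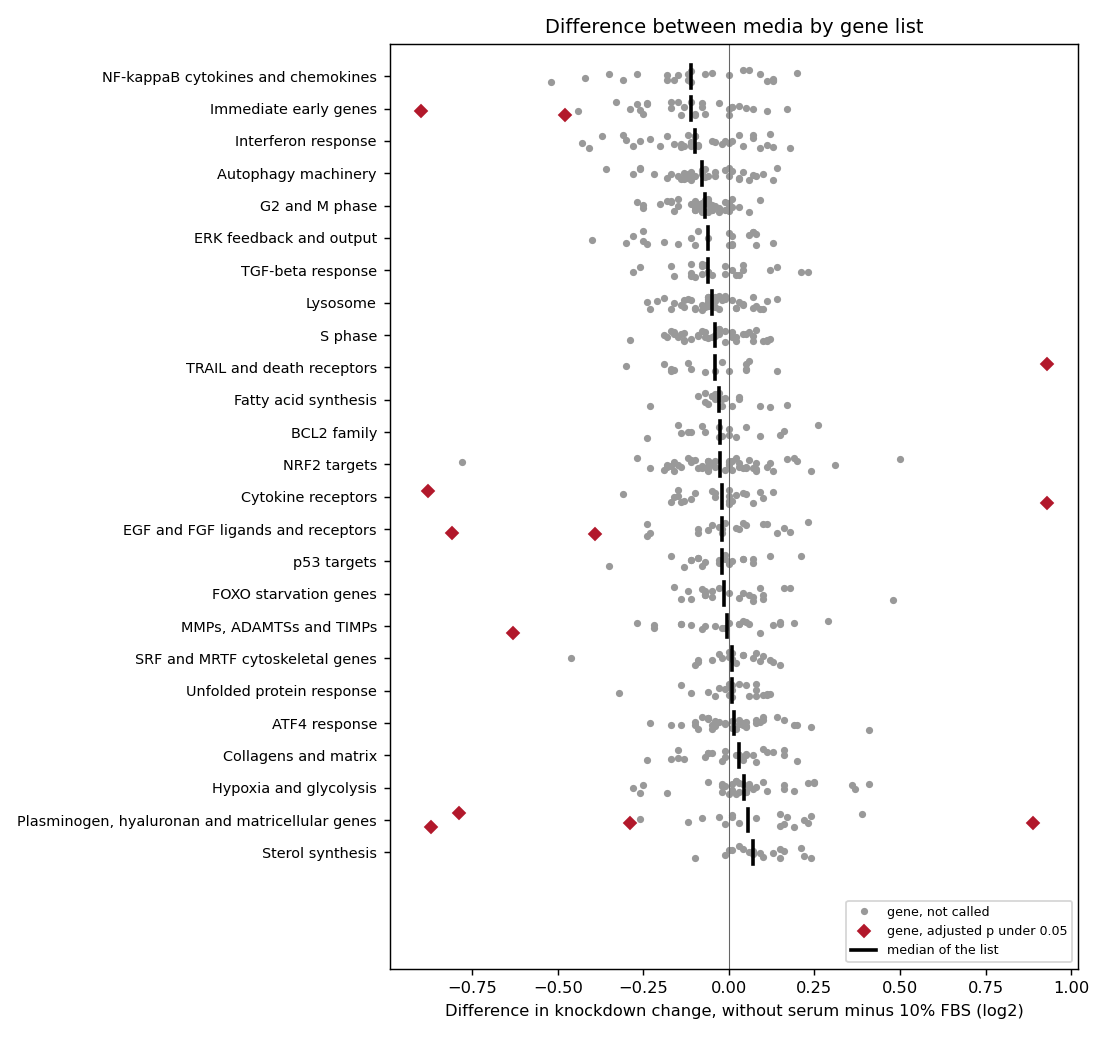
Each dot is a gene of the list named at the left, with the log2 difference in knockdown change between the media (without serum minus 10% FBS) on the x axis, red diamonds for genes with an adjusted p under 0.05 and a black bar for the median of the list. List medians run from -0.11 for immediate early genes and for NF-kappaB cytokines to 0.074 for sterol synthesis, and the called genes lie far from the medians of their lists.

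Of the 51 called genes, 19 were called in each of the 12 fits that left out 1 array: *FOS*, *IL7R*, *HAS2*, *SPP1*, *OR4C6*, *SLC1A3*, *ADCY5*, *GEM*, *SLC38A4*, *THSD7A*, *PRRX1*, *RDH10*, *INHBA*, *ABCA1*, *SYNM*, *SLC14A1*, *PLAU*, *TNFSF10* and *LIFR*. Another 29 were called in under 6 of these fits. Of the 19, *FOS*, *OR4C6* and *TNFSF10* were not called in every other setting of the fit. All 51 kept the sign of their difference in these 12 fits, and in linear signal, where equal folds weigh more at high levels, the sign was the same for 51 of 51.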

How the data were processed

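Total RNA of 12 Calu-6 cultures was measured on Affymetrix Human Gene 1.0 ST arrays. The authors deposited RMA values in log2 units, computed in BRB-ArrayTools. RMA subtracts background, equalizes the distributions of the arrays by quantiles and combines the probes of each feature. The probe set level and annotation version are not given in the sources used here. Quantile normalization gives all arrays nearly the same distribution, so a shift of all genes together would not be seen. RMA values have no detection calls, and the number of arrays limits the precision.

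Groups came from the sample labels, and 0 value columns were left unmapped. Of 33252 features, 19460 carry exactly 1 gene symbol in the platform annotation and stand for 18417 genes, 1754 carry several and 12038 none, and the latter 2 kinds were not named or tested, except in 1 alternative. The interaction was fitted to all 12 arrays as 4 group means with limma 3.58.1 (lmFit and eBayes, R 4.3.3), and knockdown in each medium to its 6 arrays. Benjamini-Hochberg adjustment ran over these features, and an adjusted p under 0.05 was called. Intervals are limma's 95% confidence intervals. The study's methods name an unadjusted p under 0.01, so this limit was an alternative. For gene lists, 1 feature per gene, that with the highest mean, was used.

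Named were *LAPTM4B*, 8 genes that the study followed, all called features (with values in each array for the 12 largest differences in each direction and a few others) and, for each of 25 gene lists, the called members and the 2 with the lowest p. The comparison, the lists and the named genes were chosen with earlier results of these data known. Promoter windows are those of RefSeq (GRCh38.p14), the first entry of a gene where several are listed. Arrays of the same replicate number deviated together unevenly, with correlations from -0.17 to 0.48 over the features, so the numbers were not used as pairs. Serum withdrawal values and linear signals are differences of group means with no test.

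Alternatives were an intensity trend with a robust prior, dim features left out, all features, 1 feature per gene, no moderation of the variances, array weights, a replicate block, cyclic loess, each array left out in turn, the unadjusted limit and, for knockdown, 1 fit of all 12 arrays.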

Additional observations from a re-analysis of the deposited data

Results flagged for a closer look

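For 51 features the interaction test in limma showed that the change after LAPTM4B knockdown differed between the media, which is a test of the difference itself, and each difference is given here in log2 units as the change without serum minus the change with 10% FBS. Dixon's test for a sample far from the others was not run, since no group holds more than 3 arrays.

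Among genes that encode receptors, transporters and other membrane proteins, the difference was -0.88 for *IL7R*, -0.39 for *FGFR2*, -0.70 for *SLC1A3*, -0.57 for *SLC38A4*, -0.63 for *ADCY5*, -0.50 for *FFAR2*, -0.45 for *ABCA1*, -0.70 for *OR4C6*, -0.39 for *SEMA5A*, -0.44 for *ADGRG1*, -0.55 for *THSD7A* and -0.38 for *CLN8*. These 12 genes had a more negative change without serum.

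Secreted proteins and enzymes of the cell surroundings with the same direction had differences of -0.79 for *SPP1*, -0.81 for *FGF7*, -0.83 for *SRPX2*, -0.87 for *HAS2*, -0.63 for *MMP1*, -0.53 for *SCUBE3*, -0.55 for *TCN1*, -0.48 for *INHBA* and -0.29 for *SERPINE2*. For the transcription factors and nuclear proteins the values were -0.90 for *FOS*, -0.48 for *EGR1* and -0.52 for *PRRX1*. The remaining genes of this direction were -0.63 for *FRMD7*, -0.59 for *GEM*, -0.50 for *RDH10*, -0.48 for *ST6GALNAC3*, -0.44 for *SYNM*, -0.43 for *PDE1B*, -0.41 for *DNAJA4*, -0.40 for *PLEK2*, -0.40 for *DHRS2*, -0.39 for *EEIG2*, -0.38 for *KLHL15*, -0.37 for *COBLL1* and -0.37 for *TPD52L1*.

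In the opposite direction, with a more negative change in 10% FBS, the receptors, ligands and transporters had differences of 0.93 for *TNFSF10*, 0.93 for *LIFR*, 0.66 for *SLC1A5*, 0.53 for *SLC14A1* and 0.31 for *TFRC*. Urokinase and other secreted proteins had differences of 0.89 for *PLAU*, 0.52 for *PAMR1* and 0.45 for *IGFBP5*. The targeted gene and the others were at 0.33 for *LAPTM4B*, 0.75 for *NNMT*, 0.57 for *KCTD4*, 0.42 for *ABLIM3*, 0.38 for *ACOXL* and 0.36 for *SOX2*. For *SLC1A5* the other feature of the gene gave a difference of 0.05.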

How the results depend on the processing

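The count of 51 interaction calls moved with the method. It was 163 with an intensity trend and robust prior, 157 with array weights and 107 with dim features left out, but 27 without moderation of the variances and 17 when all features of the array were tested. At an unadjusted p under 0.01 it was 682, and over the fits that left out 1 array it ran from 19 to 51. With 1 feature per gene it was 53 and with cyclic loess 63. The count of knockdown calls without serum, 454, became 1126, 983, 880, 27 and 134 with the trend, array weights, without dim features, without moderation and with all features, 687 in 1 fit of all 12 arrays and 1291 at the unadjusted limit, and 118 to 290 with 1 array left out. With 10% FBS the 793 calls became 1686, 1210, 1362, 177 and 279 in the same order, 1370 in 1 fit, 1574 at the unadjusted limit and 228 to 482 with 1 array left out. The cause was not tested, except that testing all features adds tests and leaving out an array removes samples.

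With the replicate block the interaction made 84 calls, 49 of them among the 51, and the knockdown fits made 656 and 833. Same-numbered arrays deviated together in most pairs of groups, with correlations of up to 0.48, but not in every pair. The negative correlations, -0.17, -0.11 and -0.079, all involved siLAPTM4B 10% FBS replicate 3. The block is given here only, and whether same-numbered arrays share a batch was not tested.

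Of the 51 genes, 48 were also called with the trend, 33 of the 33 that were tested without dim features, 17 with all features, 50 of 50 with 1 feature per gene, 21 without moderation, 51 with array weights and 48 with cyclic loess. All of these settings and those with 1 array left out called 16 of the 51. *FOS*, *OR4C6* and *TNFSF10* were called with each array left out. Of the other settings that tested them, 6 of 8, 5 of 7 and 6 of 7 called them. For the named features not called in the main fit, 32 combinations of feature and setting gave a call with the same sign, and 890 gave no call. These are not broken down by gene here. No called gene changed sign. The sign turned for *NQO1*, whose difference was 0.0017 with array weights and -0.021 to 0.013 with 1 array left out, and for *MAP1LC3B*, with -0.087 to 0.02, and neither was called. Without cyclic loess the median of the fibroblast markers was 0.0094, and with it -0.0078, the only list median whose sign it turned.

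These limits bear on the text: 3 arrays per group, 1 cell line and 1 siRNA pool, and no detection calls. The knockdown was also measured as somewhat deeper with serum, a difference called in 0 of 12 fits that left out 1 array.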
